A study of Rattus norvegicus with 3 samples.

Results

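The genes described were the 3 peroxisome proliferator-activated receptors (Ppara, Ppard and Pparg), the 3 retinoid X receptors (Rxra, Rxrb and Rxrg) and the 2 coactivators Ppargc1a and Ppargc1b. They were chosen by name, and every peak whose gene field held one of the 8 symbols was taken. Of 7128 olanzapine peaks 10 did so, and of 19449 clozapine peaks 12 did so. Livers of female Sprague-Dawley rats were assayed for dimethylated lysine 4 of histone H3 (H3K4me2) by chromatin immunoprecipitation and sequencing (ChIP-seq). There was 1 library from a rat given olanzapine (3 mg/kg, 2 doses a day), 1 from a rat given clozapine (20 mg/kg, 2 doses a day) and 1 from a rat given the vehicle, each after 9 weeks of oral treatment in groups of 12 rats. All rats ate a sweet cookie pellet, which carried the olanzapine, whereas clozapine came to be given by syringe into the mouth ahead of a drug-free pellet. The rats were fasting at the end, no age was stated, and the liver pieces hold several cell types. The peaks of the olanzapine and of the clozapine library were analysed here, and none of the vehicle library. Each drug thus had 1 library and no replicate, so no difference between the libraries was tested, and drug and library cannot be told apart.

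PPARs are nuclear receptors that bind fatty acids and their derivatives and act on DNA as heterodimers with an RXR. In liver Ppara drives fatty acid oxidation and the fasting response, Ppard acts on lipid and glucose use in many tissues, and Pparg is best known as the regulator of fat cell differentiation and lipid storage. The coactivators bind these and other receptors and raise mitochondrial gene expression, and Ppargc1a also raises gluconeogenic gene expression in liver. H3K4me2 is found at promoters and enhancers, often around the start sites of genes rich in CG dinucleotides.

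The upstream sequence of these genes ranges from extremely rich to poor in CG, the feature that went with peaks in the lists as a whole (described further on), and 4 of the 7 genes with a RefSeq window are shown for that range. Each line gives the 250 bases before a RefSeq start (RefSeq sequence, assembly GRCr8, plus strand, 5' to 3'), with CG dinucleotides in capitals. GRCr8 is a later assembly than the Rnor_6.0 of the peak positions, so these windows were joined to the peaks by gene symbol and not by position.
Rxra, chr3:31387642-31387891: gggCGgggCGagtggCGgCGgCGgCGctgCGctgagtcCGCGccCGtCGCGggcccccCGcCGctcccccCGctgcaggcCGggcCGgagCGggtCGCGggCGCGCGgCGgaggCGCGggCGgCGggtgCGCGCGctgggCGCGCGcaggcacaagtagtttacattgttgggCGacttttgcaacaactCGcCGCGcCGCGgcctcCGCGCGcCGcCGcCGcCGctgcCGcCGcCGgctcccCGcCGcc
Ppara, chr7:118712357-118712606: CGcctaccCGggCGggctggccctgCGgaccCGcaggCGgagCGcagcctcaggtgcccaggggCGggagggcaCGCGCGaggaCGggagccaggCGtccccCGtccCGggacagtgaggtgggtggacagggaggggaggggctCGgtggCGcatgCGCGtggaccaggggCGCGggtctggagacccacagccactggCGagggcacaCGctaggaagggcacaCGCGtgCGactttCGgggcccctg
Pparg, first start, chr4:150096808-150097057: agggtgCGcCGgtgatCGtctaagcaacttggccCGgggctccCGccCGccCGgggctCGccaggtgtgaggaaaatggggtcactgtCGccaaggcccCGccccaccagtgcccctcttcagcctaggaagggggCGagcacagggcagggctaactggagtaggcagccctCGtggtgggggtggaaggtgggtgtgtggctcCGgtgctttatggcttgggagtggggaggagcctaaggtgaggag
Pparg, second start, chr4:150154522-150154771: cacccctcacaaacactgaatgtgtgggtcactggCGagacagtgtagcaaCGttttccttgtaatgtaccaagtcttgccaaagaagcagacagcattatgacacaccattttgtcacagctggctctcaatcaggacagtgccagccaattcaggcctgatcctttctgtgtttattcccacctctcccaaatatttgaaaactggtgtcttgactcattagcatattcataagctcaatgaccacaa
Ppargc1a, chr14:63634058-63634307: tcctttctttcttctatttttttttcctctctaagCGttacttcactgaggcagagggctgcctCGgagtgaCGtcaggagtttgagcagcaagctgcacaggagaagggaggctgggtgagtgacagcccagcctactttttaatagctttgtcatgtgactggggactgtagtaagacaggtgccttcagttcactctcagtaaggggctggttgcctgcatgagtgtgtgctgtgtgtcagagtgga

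In the olanzapine library 6 of the 8 genes carried a peak at the start side or over exons, among them all 3 PPAR genes, Rxra, Rxrb and Ppargc1b. In the clozapine library 2 of the 8 did, Pparg and Rxrb. These counts take the authors' upstream, 5' UTR and exonic classes, splice sites included. By the same count 22.7% of 18539 protein-coding genes carried a peak under olanzapine, against 14.4% under clozapine. When introns and 3' UTRs were added, the olanzapine count was 7 of 8, with Rxrg joining through an intron, and the clozapine count 3 of 8, with Ppara joining. The share of all protein-coding genes was then 26.7% under olanzapine, against 28.2% under clozapine. In the upstream and 5' UTR classes alone, 3 of the 8 genes had a peak in the olanzapine library (all genes, 7.23%) and 0 in the clozapine library (all genes, 0.879%). Pparg and Rxrb were the members with such a start-side or exonic peak in both libraries, as were 5.72% of all protein-coding genes. With a -log10 q of at least 5 a start-side or exonic peak was left in 0 members under olanzapine and 1 under clozapine. Among peaks longer than 200 bp one was left in 6 under olanzapine and 1 under clozapine. The length limit dropped 64.2% of all clozapine peaks and 5.32% of all olanzapine peaks. Shares of all protein-coding genes under these limits are not given, so these counts are not read as a trait of the members. The clozapine library had far fewer reads placed on the genome than the olanzapine library. The study reported similar numbers of reads after quality filtering for both, so a smaller share of the clozapine reads was placed. The part of this difference in these counts was not tested. The lists carry no read numbers, so a gene without a peak is one where none was listed, not one without the mark.

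The peaks of these genes were of middling strength in both lists and much longer in the olanzapine library. Strength is given here as the fold enrichment, the ratio of signal to a background that the sources do not name. Over the 10 olanzapine peaks it had a median of 4.28 and a range of 3.8 to 5.97, beside a median of 4.3 over the whole list. Over the 12 clozapine peaks it had a median of 3.5 and a range of 2.9 to 5.72, beside 3.78 over the whole list. Olanzapine peaks of these genes had a median length of 945 bp, beside 577 bp over the whole list, and clozapine peaks one of 170 bp, beside 171 bp. At most 200 bp long were 1 of the 10 olanzapine peaks and 9 of the 12 clozapine peaks, of which 7 had 170 bp, the minimum in the clozapine list. In the whole lists 5.32% of olanzapine peaks and 64.2% of clozapine peaks were that short.

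**Figure D1:**
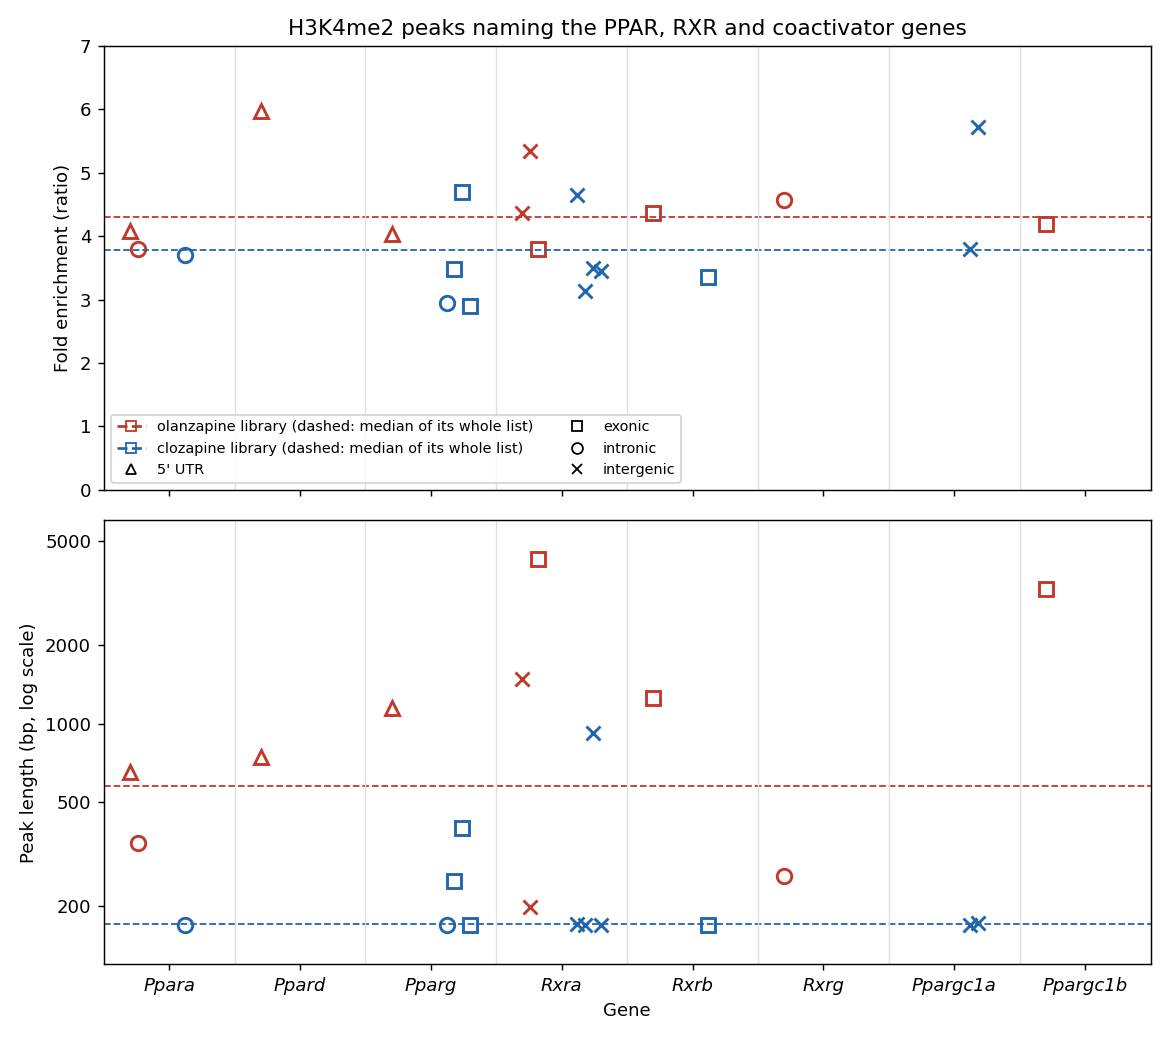
Fold enrichment (upper panel, ratio) and length (lower panel, bp, log axis) of each peak naming a member, by gene, with the olanzapine library left of the clozapine library. Each point is 1 peak, its shape gives the class, and dashed lines are the medians of the whole lists. The olanzapine exonic peaks of Rxra (4269 bp) and Ppargc1b (3288 bp) stood far above all clozapine points in length, of which the longest was 922 bp.

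Among the receptors, Ppara had its strongest olanzapine peak in the 5' UTR, on chromosome 7 from 126619187 to 126619839 of Rnor_6.0 (653 bp, fold enrichment 4.08, -log10 q 2.51). A weaker olanzapine peak lay in an intron 10970 bp further into the gene (126630810 to 126631159, 350 bp, fold enrichment 3.8), with a -log10 q of 1.14, close to the limit of the list at 1.0. The single clozapine peak of Ppara was intronic and 170 bp long (126667690 to 126667859, fold enrichment 3.7, -log10 q 3.52). It lay 36.5 kb beyond the intronic olanzapine peak, so no listed peaks of the 2 libraries overlapped in this gene. Overlap was rare in the whole lists, at 2.34% of olanzapine and 0.864% of clozapine peaks.

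Ppard had the strongest peak of the set by fold enrichment and no clozapine peak. Its olanzapine peak covered 744 bp of the 5' UTR region on chromosome 20 from 7818245 to 7818988, with a fold enrichment of 5.97 and a -log10 q of 4.81. That fold lay at percentile 94.7 of the olanzapine list, against 37.1 for the 5' UTR peak of Ppara and 33.9 for that of Pparg. The nearest clozapine peak was an intronic peak of 170 bp in the neighbouring gene Def6, 20.9 kb away (fold enrichment 4.28).

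The listed peaks of Pparg lay in separate stretches in the 2 libraries, and most peaks of both whole lists likewise overlapped none of the other list. The olanzapine peak lay in the 5' UTR on chromosome 4 from 147274103 to 147275248 (1146 bp, fold enrichment 4.03, -log10 q 2.03). Its length stood at percentile 83.1 among the 5' UTR peaks of that library, whose median was 671 bp. The clozapine library had 4 peaks in Pparg and none within 71.9 kb of the olanzapine peak. The first was intronic (147347161 to 147347330, 170 bp, fold enrichment 2.94), and the 3 others were exonic.

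These exonic clozapine peaks of Pparg followed at gaps of 96.9, 107 and 124 kb from the olanzapine peak. The middle one was the strongest (147382177 to 147382573, 397 bp, fold enrichment 4.7, -log10 q 5.52), at percentile 87.5 by fold among the exonic peaks of its library. The one before it had a fold enrichment of 3.49 over 249 bp (147372186 to 147372434), and the last a fold enrichment of 2.9 over 170 bp (147398974 to 147399143). Of the protein-coding genes with an exonic clozapine peak, 311 of 2545 (12.2%) had 3 or more, against 3 of 2915 (0.103%) in the olanzapine library. Several exonic peaks in a gene were thus a trait of the clozapine list at large.

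Rxra, the main RXR of liver, had the longest olanzapine peak of the set, laid across its start. The exonic peak on chromosome 3 ran from 6210909 to 6215177, or 4269 bp, the third longest of the 2923 exonic olanzapine peaks. Its fold enrichment was modest at 3.8 (percentile 20.2 of the list, -log10 q 1.87). The distances that the files give for intergenic peaks put the edges of Rxra at 6211816 and 6295354, a span of 83.5 kb, and every such distance gave the same edges. The gene order Wdr5, Rxra, Col5a1 was the same in the files and in GRCr8, where Rxra is read in this direction, so the lower edge was taken as the start. The peak then began 907 bp before the start and reached 3362 bp into the gene. No clozapine peak lay inside Rxra.

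Between Wdr5 and Rxra both libraries had peaks, and there stood the single place where a peak of one list overlapped a peak of the other among these genes. The olanzapine peak from 6175526 to 6175723 (198 bp, fold enrichment 5.35, -log10 q 3.74) held the whole of the clozapine peak from 6175541 to 6175710 (170 bp, fold enrichment 3.14, -log10 q 2.53). Both were intergenic and lay 36.1 kb before the start of Rxra. Over the whole lists 2.34% of olanzapine peaks overlapped a clozapine peak and 0.864% of clozapine peaks overlapped an olanzapine peak.

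The other intergenic peaks by Rxra were not shared. A further olanzapine peak of 1479 bp lay 76.3 kb before the start (6134021 to 6135499, fold enrichment 4.36). In the clozapine library a peak of 922 bp lay 23.2 kb before the start (6187704 to 6188625, fold enrichment 3.5), the longest clozapine peak of the set. A clozapine peak of 171 bp, 125 kb before the start and close to Wdr5, had a fold enrichment of 4.65 (6086623 to 6086793). The last, of 170 bp, lay 117 kb past the gene and nearer to Col5a1 (6411897 to 6412066, fold enrichment 3.45). The authors' annotation named Rxra here only as a flanking gene, and whether these places act on it was not measured.

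Rxrb had an exonic peak in each library, 3.51 kb apart and without overlap, as was usual for peaks of both lists. On chromosome 20 olanzapine had a peak between 3822494 and 3823745 (1252 bp, fold enrichment 4.36, -log10 q 2.85). The clozapine peak ran from 3827258 to 3827427 (170 bp, fold enrichment 3.36, -log10 q 2.18). In the files Slc39a7, which encodes a zinc transporter, lies below Rxrb and Col11a2 above it, and GRCr8 gives the reverse order with Rxrb read from the side of Slc39a7. The olanzapine peak was therefore on the side of Rxrb where RefSeq places its start, and the clozapine peak toward Col11a2. A clozapine peak of 938 bp over exons of Slc39a7 (3821423 to 3822360, fold enrichment 2.9) ended 133 bp short of the olanzapine peak.

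Rxrg, the RXR known mostly from muscle and brain, had 1 short intronic peak in the olanzapine library and none in the clozapine library. The peak lay on chromosome 13 from 85840188 to 85840449 (262 bp, fold enrichment 4.57, -log10 q 2.3).

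The 2 coactivators differed from each other in the olanzapine library, whereas neither had a clozapine peak within the gene. Ppargc1b had 1 olanzapine peak, an exonic one of 3288 bp on chromosome 18 from 56725920 to 56729207 (fold enrichment 4.19, -log10 q 2.86), and no clozapine peak. It ranked 21st by length among the exonic peaks of that library, at percentile 99.3. The positions of its gene edges were not given by any peak in the lists, so its place relative to the start was not measured.

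Ppargc1a, the coactivator known to rise in fasted liver, had no olanzapine peak at all and 0 peaks inside the gene in either library. Its edges followed from the distances of its flanking peaks as 63095827 and 63186819 on chromosome 14, a span of 91.0 kb. Both clozapine peaks that named it were intergenic and far away. The one before the gene lay 334 kb from it (62761907 to 62762076, 170 bp, fold enrichment 3.79), and the one past it lay 131 kb off (63317851 to 63318022, 172 bp). The peak past the gene had the highest fold enrichment of all clozapine peaks of the set, 5.72, and a -log10 q of 7.44.

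**Figure D2:**
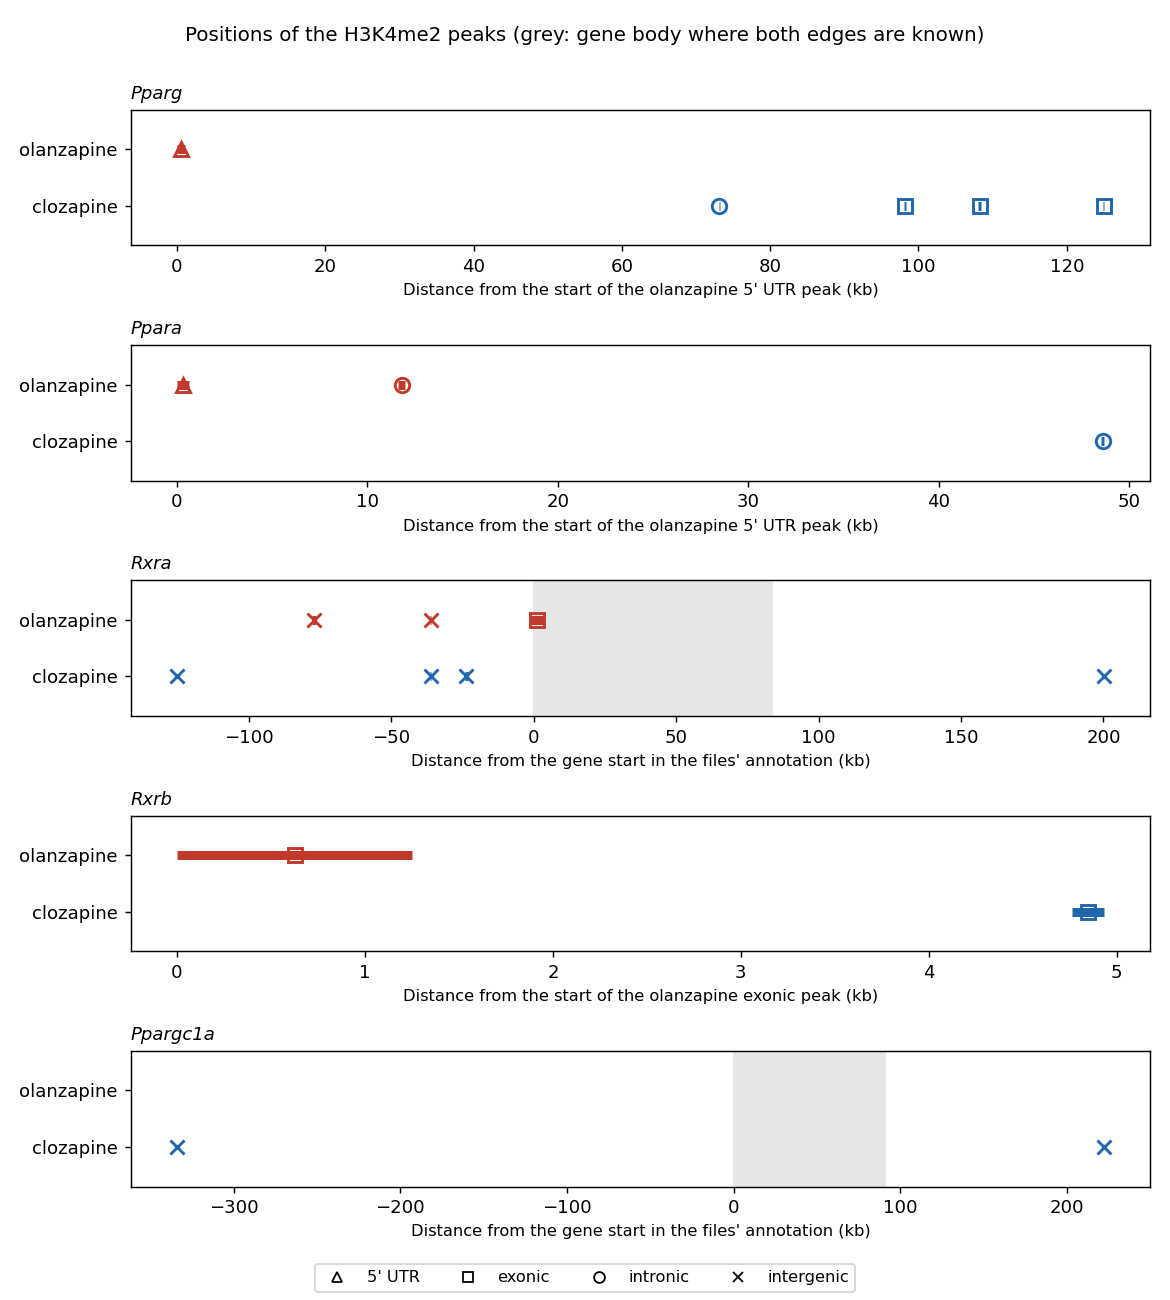
Positions of the peaks of 5 genes in kb (horizontal axis) from the point named under each axis, with the olanzapine library above the clozapine library. Bars give the extent of each peak to scale, symbols its class, and grey areas the gene body of Rxra and Ppargc1a. For Pparg, Ppara and Rxrb that point is the start of an olanzapine peak, so the place of this peak on the axis was set by the drawing. The olanzapine and clozapine peaks met at 1 place, 36.1 kb before Rxra.

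The promoter windows of the members were mostly rich in CG, as counted over 300 bp (250 before and 50 after a RefSeq start). Windows were found for 7 of the 8 genes, and Ppard had none in the table. Rxra held 62 CG dinucleotides, Rxrb 41, Ppargc1b 38 and Ppara 32. The count of Rxra lay at percentile 100, after rounding, of 15738 windows of protein-coding genes, where counts reached 66. Rxrg held 21, the first window of Pparg 14 and its second 3, and Ppargc1a 4, beside a median of 16 over all windows. The genes with the most CG, Rxra, Rxrb, Ppargc1b and Ppara, were all among those with a start-side or exonic olanzapine peak. Ppargc1a, at the low end, was not. The order was broken by Rxrg, with 21 CG and no such olanzapine peak, and by Pparg, with 14 and 3 CG and a 5' UTR olanzapine peak.

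Over all genes the share with a peak was higher in each bin with more CG. Protein-coding genes were put in 4 bins of about equal size by the CG count of the window. In the bin with 0 to 5 CG a start-side or exonic peak was carried by 4.39% under olanzapine, against 6.84% under clozapine. With 6 to 16 CG the shares were 19.2% under olanzapine and 10.9% under clozapine, and with 17 to 26 CG they were 34.9% under olanzapine and 17.6% under clozapine. With 27 to 66 CG they were 36.5% under olanzapine and 22.3% under clozapine. In the upstream and 5' UTR classes alone the olanzapine share was 1.1% in the lowest bin and 12.1% in the highest, whereas the clozapine share lay between 0.612% and 1.03% in all 4. These shares describe the lists, and gene length and expression were not matched.

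**Figure D3:**
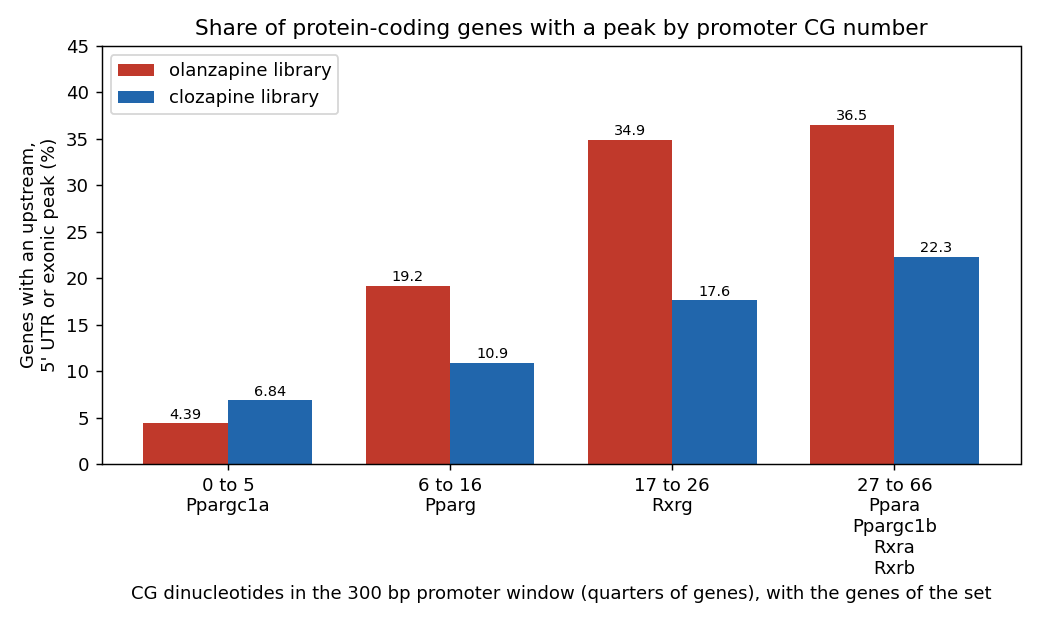
Share of protein-coding genes (%) with an upstream, 5' UTR or exonic peak, by the number of CG dinucleotides in the promoter window in 4 bins of genes, with the members of each bin under the axis. Left bars are the olanzapine library and right bars the clozapine library. The olanzapine share was 4.39% in the bin with the fewest CG and 36.5% in that with the most.

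3 motifs were searched on both strands of these windows. The cAMP response element TGACGTCA stood in 2.55% of all windows and, among the members, in that of Ppargc1a, 181 bases before the start in the sequence printed above (tgaCGtca). The GC box GGGCGG stood in 49.9% of all windows and in 5 of the 8 member windows, those of Rxra, Ppara, Ppargc1b, Rxrb and the first of Pparg. The direct repeat AGGTCANAGGTCA that PPAR-RXR heterodimers favour stood in 0.0318% of all windows and in 0 of the 8. A match is only a run of letters and shows no binding.

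The deposited pathway tables list as input genes the members with a peak of any class but intergenic. In the KEGG table the PPAR signaling pathway held 37 input genes of 82 for the olanzapine library, with 6 members (Ppara, Ppard, Pparg, Rxra, Rxrb and Rxrg). For the clozapine library it held 30 of 82, with 3 members (Ppara, Pparg and Rxrb). Of all protein-coding genes 26.7% had a non-intergenic peak under olanzapine and 28.2% under clozapine. The direction varied between terms that held members. With olanzapine first, adipocytokine signaling held 36 and 32 of 75, non-alcoholic fatty liver disease 71 and 58 of 163, and insulin resistance 55 and 54 of 111. Thyroid hormone signaling held 44 and 72 of 119, and bile secretion 26 and 34 of 72. Rxra stood in 12 KEGG terms in the olanzapine table and in 0 in the clozapine table, where it was named by intergenic peaks alone. Ppargc1b stood in 1 KEGG term of the olanzapine table, insulin resistance, and Ppargc1a in 0 of either. In the GO tables Rxra and Rxrb stood in no term of either library even where they had exonic peaks, while Pparg stood in 573 terms and Ppara in 421 in each library.

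Other genes of PPAR and RXR action were looked at as 3 lists. Of 11 other receptors that pair with an RXR, 6 (54.5%) had a start-side or exonic peak under olanzapine, where 22.7% of all protein-coding genes did, against 3 (27.3%) under clozapine, where 14.4% did. Rara and Rarb, receptors for retinoic acid, had one in both. The exonic olanzapine peak of Rarb on chromosome 15 covered 2003 bp (10119874 to 10121876, fold enrichment 5.8) and its exonic clozapine peak with the highest -log10 p 206 bp (10258221 to 10258426, fold enrichment 5.55). Rara had 2127 bp in the olanzapine library (chromosome 10, 86869527 to 86871653, fold enrichment 5.89) and 311 bp in the clozapine library (86880077 to 86880387, fold enrichment 5.04). Nr1i2, the xenobiotic sensor PXR, had a 5' UTR peak of 2744 bp in the olanzapine library (chromosome 11, 65022157 to 65024900, fold enrichment 4.32). The partner receptors with an upstream or 5' UTR peak numbered 4 in the olanzapine library (Nr1h2, Nr1h4, Nr1i2 and Thrb) and 0 in the clozapine library. Of all protein-coding genes 7.23% had such a peak under olanzapine and only 0.879% under clozapine.

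Of 18 coregulator genes, 3 (16.7%, beside 22.7% of all protein-coding genes) had a start-side or exonic peak under olanzapine (Med1, Nrip1 and Hdac3). Under clozapine 7 did (38.9%, beside 14.4% of all), namely Ncoa2, Ncoa6, Med1, Crebbp, Ncor1, Pprc1 and Hdac3. By -log10 p the first clozapine peak of the list was that of the corepressor Ncor1 (chromosome 10, 48654931 to 48655629, 699 bp, fold enrichment 6.28), followed by the acetyltransferase Crebbp (fold enrichment 5.27 over 960 bp) and the deacetylase Hdac3 (fold enrichment 4.28 over 630 bp). The olanzapine peak of Med1, a mediator subunit that binds PPARs, lay in the 5' UTR (fold enrichment 4.43 over 989 bp), as did that of the corepressor Nrip1 (fold enrichment 3.53 over 1294 bp).

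Of 24 genes known as targets of PPARs, 12 (50.0%) had a start-side or exonic peak under olanzapine, against 8 (33.3%) under clozapine. Those with one in both libraries included Acadm, Hadha, Acsl1 and the desaturase Scd1 (listed as Scd). In the olanzapine library those with the highest -log10 p were Cyp4a3 (fold enrichment 4.8), a fatty acid hydroxylase whose near-identical relatives make its placing uncertain, Scd1 (fold enrichment 6.15) and Acadm (fold enrichment 6.02), an enzyme of fatty acid oxidation. In the clozapine library those with a high -log10 p included Ucp2 (fold enrichment 6.1), a mitochondrial carrier, and Acsl1 (fold enrichment 3.72), which activates fatty acids. Over the 3 lists together olanzapine peaks of these classes lay in 21 of 53 genes (39.6%) and clozapine peaks in 18 of 53 (34.0%), beside the 22.7% and 14.4% of all protein-coding genes.

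As a check of tissue, 8 of 10 hepatocyte genes (such as Alb, Ttr and Apob) had a start-side or exonic peak in each library. The other marker lists are short, and the shares over all protein-coding genes were 22.7% under olanzapine and 14.4% under clozapine. Of 6 liver endothelial genes 0 had one under olanzapine, against 4 under clozapine (Kdr, Stab2, Pecam1 and Tek), and of 6 stellate cell genes 0 under olanzapine, against 3 under clozapine (Pdgfrb, Pdgfra and Col1a1). Of 5 adipocyte genes, the cells where Pparg is most known, 0 had one in either library, with Cidec in the olanzapine library and Adipoq and Fabp4 in the clozapine library having a peak of another class within the gene. Kupffer cell genes had 0 of 6 in each library, and neuron genes 0 of 5 under olanzapine, against 1 of 5 under clozapine. Adgre1 of the Kupffer cell list and Gad1 of the neuron list had a clozapine peak of another class within the gene. The part of these cell types in the peaks of Pparg and Rxrb was not tested.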

How the data were processed

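Reads were placed by the authors on Rnor_6.0 (also named in the submitters' processing notes) with the Burrows-Wheeler Aligner, dropping those with several placements or any mismatch. The peak caller, its control and the annotation version are not given in the sources used here. Per peak, the deposited lists hold a ratio (the fold enrichment), the -log10 of p and that of q, and positions counted from 1. Without read numbers in them, the depth of a single peak is unknown. In the study's alignment table far fewer clozapine than olanzapine reads were placed on the genome, although similar numbers had passed quality filtering. P-values in the deposited GO and KEGG tables were not used.

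Peaks were taken by gene symbol, and overlap was counted from 1 bp. RefSeq tables of assembly GRCr8 matched 98.2% of 6873 olanzapine and 97.7% of 10170 clozapine gene names, and 8 and 15 names had turned into dates. Promoter sequences are RefSeq's, joined by symbol. Members and lists were chosen with earlier results of these data known. All 8 members are named, plus up to 3 genes per list and library by -log10 p, and others as examples chosen after their values were seen. A few genes under this rule are not reported here. The 3 genes most like a member share its classes in both libraries and have the nearest fold enrichments. Overlap counting recovered 100% of 400 overlaps planted among 5000 simulated peaks. Alternatives were stricter -log10 q, fold enrichment and length, equal list lengths, other classes and other overlaps. Python 3.11.15, numpy 2.4.6, pandas 2.3.3 and matplotlib 3.10.9 were used.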

Additional observations from a re-analysis of the deposited data

How the results depend on the processing

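With a -log10 q of at least 2 every count over these genes stayed within 1.5 times its value, while higher limits removed most peaks. With a -log10 q of at least 5, start-side or exonic peaks were left at 0 members under olanzapine and 1 under clozapine (in any genic class also 0 and 1), peaks naming a member numbered 0 and 2, and list genes with a peak 1 and 5. With a fold enrichment of at least 5 the members numbered 1 and 0 (in any genic class also 1 and 0), the peaks 2 and 1 and the list genes 5 and 5. With peaks longer than 200 bp, or with lists of equal length, the clozapine library kept 1 member under either class rule and 3 peaks, and with lists of equal length 7 list genes. Counting only upstream and 5' UTR peaks, the members numbered 3 and 0. Without intergenic peaks 6 clozapine peaks named a member. In any genic class 26 of 53 list genes had an olanzapine peak and 30 of 53 a clozapine peak. Of all protein-coding genes 26.7% and 28.2% did. The clozapine count was thus the higher one here, whereas start-side or exonic peaks lay in 21 list genes under olanzapine and 18 under clozapine. The shared place by Rxra was lost (0 in both libraries) under all of these limits on q of 5, fold, length and list length, and kept when 50% of the shorter peak had to overlap. With edges up to 1000 bp apart the olanzapine count was 2, through Rxrb and Slc39a7. With peaks longer than 200 bp the highest fold enrichment of a peak of Rxra was 4.36 under olanzapine and 3.5 under clozapine. The remaining 26 of 62 counts stayed within 1.5 times. Shares of all protein-coding genes under the limits on q, fold, length and list length are not given. Counts under these limits are therefore not read as a trait of these genes. No paired analysis was possible because each drug has 1 library.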

Other observations

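Genes with the same classes of peaks as a member were common for some members and rare for others. Besides Pparg, 58 genes had a 5' UTR peak alone in the olanzapine library and exonic and intronic peaks in the clozapine library. Among the nearest in fold enrichment, by the summed difference of log2 values over the 2 libraries, were Prdx1 (0.03) and Kif1b (0.06). For Rxrb, exonic in both libraries, 513 genes shared the classes, with Mpeg1, Rab35 and Psenen nearest (0.03, 0.04 and 0.05). For Ppara, with a 5' UTR and an intronic olanzapine peak and an intronic clozapine peak, 5 genes did, of which Mllt10 was the nearest (0.09), ahead of Epc1 (0.74) and Ptpn13 (0.92). These likenesses rest on 2 libraries.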
